A study of Schizosaccharomyces pombe with 3 samples.

Results

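The library of untreated prp4-as2 cells was described on its own, intron by intron, before any inhibitor was added. Its members are the junctions of the deposited table with more than 10 reads in that library (split plus unsplit) with 1 entry for each chromosome, start, end and strand. This gave 4632 of 5368 listed junctions, in 2272 of 2546 listed genes. The junctions not kept were 538 with 1 to 10 reads and 198 with no read.

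The series holds 1 library each of untreated cells and of cells taken 30 min and 60 min after the addition of 1NM-PP1, an ATP analogue that blocks the altered kinase. All 3 libraries come from Schizosaccharomyces pombe that carries prp4-as2, a Prp4 kinase in which the gatekeeper phenylalanine was replaced by alanine and which was put at the prp4 locus of strain L972 together with a geneticin resistance marker. Cells were grown in the minimal medium EMM. The untreated cells therefore also carry the mutated kinase, a wild-type library was not analysed here, and how far their splicing differs from that of wild-type cells cannot be told from these data. The table holds junction counts only, so the allele itself cannot be checked in it. With 1 library there is no spread between cultures and no test was made: every interval below covers counting error, or the spread over introns, within this library.

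Pre-mRNA splicing removes introns in a chain of steps that starts when snRNA U1 pairs with the 5’ splice site (5’SS) and snRNA U2 pairs with the branch sequence upstream of the 3’ splice site (3’SS). Prp4 kinase acts during the activation of the assembled spliceosome. Fission yeast introns are short, many genes have several, and the 5’SS and branch sequences vary more than those of budding yeast, which makes this yeast a common model for introns with weak signals.

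At each 5’ exon junction the authors counted split reads, which join both exons of spliced RNA, and unsplit reads, which continue from the exon across the 5’SS of RNA that still holds the intron. The unspliced share is the percentage of unsplit reads among both kinds, and intervals of a share are exact 95% Clopper-Pearson intervals. An intron is called well spliced here below 5% and poorly spliced from 20%. Because PCR reads without molecular identifiers are not independent molecules, these intervals cover counting error of independent reads only.

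Introns at both ends of the range show what these shares stand for. Sequences are from RefSeq ASM294v3, given 5’ to 3’ with 3 exon bases at each side. Capitals mark the first 6 intron bases (the 5’SS), the branch pentamer and the last 3 intron bases (the 3’SS), and the branch pentamer is a CTNAC, in which either C may also be T, that shares most bases with CTAAC within the last 40 nt on the strand of the gene. The first 4 were among the best spliced introns of the library: srp2 III (chrI:4426657-4426702, minus strand) of an SR protein gene, rps901 I (chrI:476051-476101, minus strand) and rpl8 I (chrII:2045495-2045566, plus strand) of ribosomal protein genes, and smg1 III (chrII:3421639-3421683, plus strand), whose product is a core protein of the spliceosomal snRNPs.
srp2 III: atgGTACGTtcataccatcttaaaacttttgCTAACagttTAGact
rps901 I: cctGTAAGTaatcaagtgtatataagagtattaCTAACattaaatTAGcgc
rpl8 I: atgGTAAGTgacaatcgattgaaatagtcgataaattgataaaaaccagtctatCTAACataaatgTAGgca
smg1 III: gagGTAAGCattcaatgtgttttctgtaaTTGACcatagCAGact
They had 1 unsplit against 1383 split reads (srp2 III), 2 against 1672 (rps901), 1 against 1024 (rpl8) and 0 against 514 (smg1 III). All 4 have GTA and a G at the fifth intron base, and srp2 III is only 40 nt long. These bases are common. Of the 4577 kept introns that the reference annotates, 4271 have A at the third base and 4061 (88.7%) have G at the fifth.

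The next 5 were among the most poorly spliced introns that the reference annotates: prp10 II (chrI:4336553-4336624, minus strand) in the gene of the U2 snRNP protein SF3B1, mug161 III (chrI:636174-636236, plus strand) of a splicing factor gene, SPBP8B7.31 III (chrII:3698917-3698975, plus strand) of an acid phosphatase gene, SPBC17D1.01 I (chrII:3327044-3327096, plus strand) in a gene annotated as the transcriptional regulator Spp41, and med11 I (chrI:2691796-2691861, plus strand) of a Mediator subunit gene.
prp10 II: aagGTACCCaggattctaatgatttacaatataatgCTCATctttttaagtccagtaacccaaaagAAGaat
mug161 III: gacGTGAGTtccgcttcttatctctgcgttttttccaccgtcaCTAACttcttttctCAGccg
SPBP8B7.31 III: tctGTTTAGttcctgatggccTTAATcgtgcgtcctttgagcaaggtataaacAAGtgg
SPBC17D1.01 I: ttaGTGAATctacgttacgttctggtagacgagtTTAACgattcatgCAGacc
med11 I: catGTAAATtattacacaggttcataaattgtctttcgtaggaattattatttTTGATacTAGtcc
Unsplit against split reads were 216 to 29 at prp10 II, 85 to 2 at mug161 III, 51 to 1 at SPBP8B7.31 III, 214 to 12 at SPBC17D1.01 I and 27 to 0 at med11. In 4 of these 5 the fifth intron base is not G, and mug161 III is the exception among them, with GTGAGT and the branch pentamer CTAAC. The 5 do not stand for all such introns. Of the 107 annotated introns with more unsplit than split reads, 73 (68.2%) have G at the fifth base, against 88.7% of all annotated introns.

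Some of these genes, among them prp10 and mug161, also held a well spliced intron, whereas med11 has no other listed intron. In prp10, intron I (chrI:4336724-4336780, minus strand) had 139 split reads and no unsplit read, an unspliced share of 0% with an upper bound of 2.62%, against 88.2% (83.4 to 91.9%) at intron II. In mug161, intron I (chrI:634969-635071, plus strand) had 43 split reads and 1 unsplit read (2.27%, 0.0575 to 12%), against 97.7% (91.9 to 99.7%) at intron III.
prp10 I: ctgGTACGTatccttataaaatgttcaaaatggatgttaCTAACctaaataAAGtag
mug161 I: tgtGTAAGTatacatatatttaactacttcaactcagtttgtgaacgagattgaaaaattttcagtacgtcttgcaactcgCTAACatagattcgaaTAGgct
In both genes the intervals of the paired introns lie far apart.

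Most introns were largely spliced before inhibition. The kept junctions held 845417 split and 62297 unsplit reads, a pooled unspliced share of 6.86%. Over introns the median was 6.88% (95% interval of the median 6.67 to 7.14%), the quartiles were 3.12% and 13.5%, and the mean was 11.3%. Of the 4632 introns, 1772 (38.3%) were well spliced, 678 (14.6%) were poorly spliced, and 140 (3.02%) had more unsplit than split reads. Among introns with more than 50 reads 7.92% were poorly spliced and 1.39% were over 50%. An entire interval under 5% was found for 391 introns, one from 20% upward for 275, and one above 50% for 72.

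Depth set how sharply a single intron could be placed. The kept junctions had a median of 74 reads, with quartiles of 34 and 168 and a maximum of 27023, and the 10 with most reads took 12.9% of all reads. An intron at the median of reads with 5 unsplit reads has an interval of 2.23 to 15.1%, and at the minimum of 11 reads an intron without any unsplit read could still be 28.5% unspliced. No unsplit read was seen at 382 introns, of which rps1801, with 956 reads, was the deepest, and no split read was seen at 19.

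**Figure D1:**
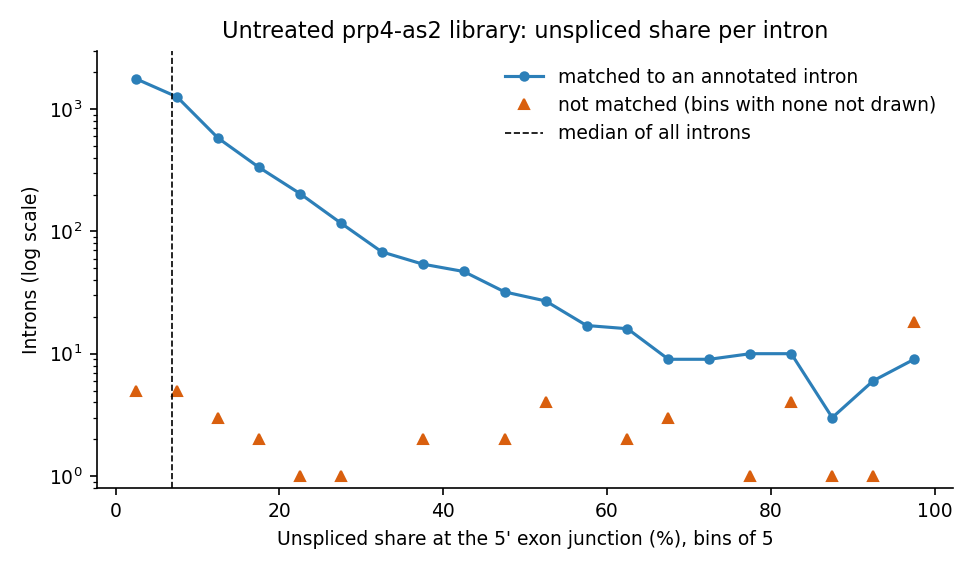
Number of introns (log axis) by unspliced share in bins of 5 percentage points, for the 4577 junctions matched to an annotated intron (line) and the 55 without a match (triangles); the dashed line is the median of 6.88%. Matched introns pile up at low shares and thin out toward 100%, while the junctions without a match are most frequent in the last bin.

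The 140 junctions over 50% were of mixed kind. Of the 4632 kept junctions, 4577 matched the 5’ end of an intron that RefSeq annotates and 55 did not. Junctions without a match had a median unspliced share of 65.0% (47.1 to 87.8%), against 6.80% (6.52 to 7.02%) for matched introns, and supplied 33 of the 140. Among the 55, 18 windows lay inside an exon of the gene, 16 at a gap of under 20 nt between exons or at exons that touch or overlap, 9 outside the exons of the gene, 4 inside another intron and 8 at the 3’ end of a small RNA encoded in an intron.

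In this last kind every one of the 8 had 0 split reads. None of these windows lies at a 5’SS that the reference annotates, so split reads were not to be expected there. Their unspliced share of 100% is therefore no measure of splicing. These 8 junctions are still counted among the kept introns, the poorly spliced ones and those with more unsplit than split reads. They include 3 genes of protein synthesis (cpc2, rps3, rpl701), the EF-1 gamma gene SPAC29A4.02c, the purine synthesis gene ade4, the ribosome biogenesis gene rlp7, the kinetochore gene fta3 and the prefoldin gene SPBC1D7.01. The small RNAs are snoRNAs, which guide modifications of other RNAs and in many cases are cut out of introns, and in rps3 the small RNA snR48. The deposited table lists the intron that holds the RNA and, as a further junction, the base where the RNA ends. There are 13 junctions at such an end in the whole table, with 521 unsplit reads and 0 split reads in all, 5 of them with too few reads to be kept.

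In cpc2, whose product RACK1 binds the small ribosomal subunit, intron II (chrI:2440254-2440506, plus strand) is shown without exon bases and with snoU24b in capitals; junction III of this gene lies directly after the capitals.
cpc2 II: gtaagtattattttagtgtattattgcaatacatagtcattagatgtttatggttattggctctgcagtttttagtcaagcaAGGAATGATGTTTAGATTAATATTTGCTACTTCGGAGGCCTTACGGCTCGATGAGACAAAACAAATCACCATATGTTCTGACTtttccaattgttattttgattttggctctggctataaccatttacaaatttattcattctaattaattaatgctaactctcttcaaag
At the 5’SS of this intron 1747 reads were split and 29 unsplit (1.63%, 1.10 to 2.34%), whereas at the end of snoU24b 86 reads were unsplit and none split. Except in SPBC1D7.01, the other host introns of these 8 genes also had more split than unsplit reads at their own 5’SS. The unspliced share was 0.707% (29 of 4104 reads unsplit) in rps3, 0.697% in rpl701, 1.03% in ade4, 2.64% in SPAC29A4.02c and 11.5% in rlp7. It was highest in fta3 (36.4%, 17.2 to 59.3%, 8 unsplit and 14 split reads) and SPBC1D7.01 (54.5%, 38.8 to 69.6%, 24 and 20 reads). The median over the 13 host introns was 6.35%. The share at such a junction is therefore read apart from that of the intron around it, and 5 of the 8 genes with the widest gap between introns (cpc2, rpl701, SPAC29A4.02c, rps3 and ade4) owe it to such a junction.

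Among the 20 junctions with the highest lower bound, 8 lie at small RNA ends, 6 are unmatched for other reasons, and 6 are annotated introns. The unmatched ones are junctions II and III of SPAC823.04 (rRNA processing protein Rrp36), with 228 unsplit reads and 0 split reads, and with 345 and 14, the single junctions of new11 (117 and 0) and SPAC1F12.03c (105 and 1), and both junctions of SPBPB21E7.08 (41 and 2, 117 and 5). The annotated ones are the 5 shown above and SPCC1450.12 IV, an intron of an uncharacterized gene with 74 unsplit and 8 split reads (90.2%, 81.7 to 95.7%). Over the matched introns alone, 107 of 4577 (2.34%) were over 50% unspliced.

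At the well spliced end, the 12 introns with the lowest upper bound all had upper bounds under 1%. The lowest was that of tef5, the gene of elongation factor EF-1 beta, with 6 unsplit and 4724 split reads (0.127%, 0.0466 to 0.276%). It was followed by ribosomal protein introns (rps1801, rps901, rps1802, rpl8, rpl3801, rps3001, rpl3802), by srp2 III, IV and V, and by smg1 III. Of the 10 introns with most reads, rpl14 came first with 26408 split and 615 unsplit reads (2.28%, 2.10 to 2.46%). These deep introns differed far beyond counting error: rps1802 was at 0.320% (0.187 to 0.512%) and rps1901 at 1.22% (1.0 to 1.5%), whereas rpl22 I was at 12% (11.4 to 12.7%) and rps13 II at 12.7% (12 to 13.4%). The remaining deep ones, rps2402, rpl2501, rps21, rpp102 I and rps13 I, lay between 2.99 and 8.75%. Since only uniquely mapped reads were kept, counts of ribosomal protein genes with near-identical copies, such as rps1801 and rps1802 or rpl3801 and rpl3802, are less certain than others.

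Splicing was more complete at junctions with more reads. The median unspliced share fell from group to group, from 11.1% (9.09 to 13.3%) at 11 to 20 reads to 8.89% at 21 to 50, 7.60% at 51 to 100, 6.35% up to 200, 4.93% up to 500 and 3.85% (3.27 to 4.16%) over 500. Poorly spliced introns made up 32.9% of the lowest group and 1.94% of the highest, against 14.6% of all. The reads of an intron are also the denominator of its share, so both move with the same counts. When introns were grouped instead by the mean reads of the other introns of their gene, the gap between the lowest and the highest group was 4.66 percentage points, against 7.26 by the intron’s own reads. The sets of introns also differ. The first value leaves out single-intron genes and has 447 introns in its 2 groups, and the second has 865. Over the 4577 matched introns the rank correlation between reads and unspliced share was -0.23, a description over introns that share 1 library.

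**Figure D2:**
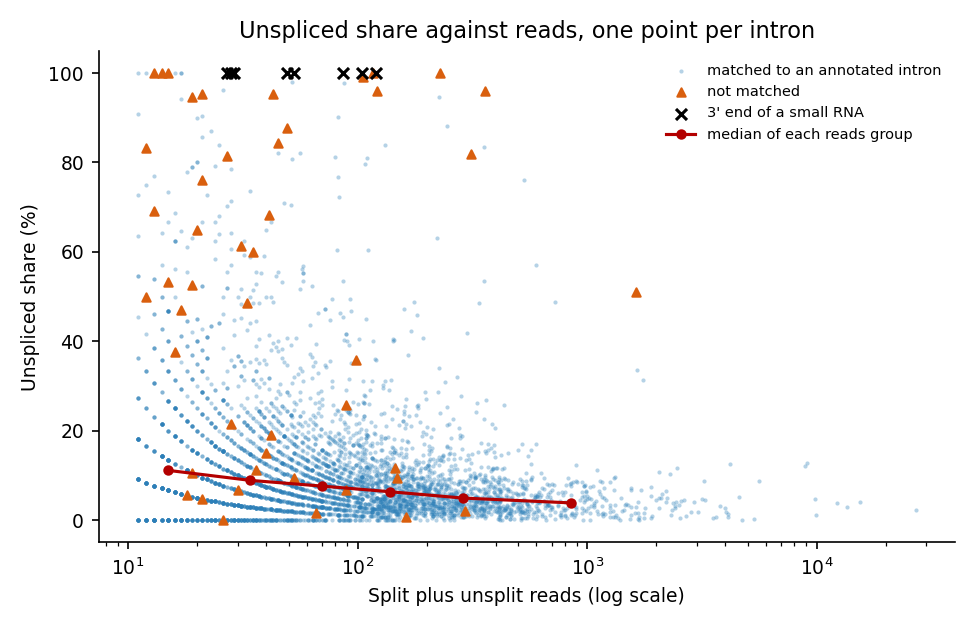
Unspliced share of each intron (%) against its split plus unsplit reads (log axis); points are matched introns, triangles unmatched junctions, crosses junctions at the 3’ end of a small RNA, and the line joins the medians of the 6 reads groups, from 11.1% to 3.85%. The curved rows of points at the left are shares that few reads can take.

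Unspliced shares differed little by the number of introns in a gene. Single-intron genes, with 964 kept introns, had a median of 7.14% (6.62 to 7.64%), and genes with 2 or more listed introns one of 6.82% (6.52 to 7.07%). Medians for 2, 3, 4, 5 and 6 or more introns were 7.14, 6.72, 5.96, 6.45 and 7.14%, and their intervals overlap. At the far end single-intron genes were represented more: 48 of 964 (4.98%) had over 50% unsplit reads, against 92 of 3668 (2.51%) introns of genes with several. Among matched introns alone single-intron genes held 33 of the 107 over 50% (30.8%, 22.3 to 40.5%) and 20.5% of all introns.

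They differed little by position in the gene either. In the 1209 genes with 2 or more kept introns, the first had a higher unspliced share than the last in 567 and a lower one in 620, with 22 ties. The median difference of first minus last was -0.35 percentage points (-0.90 to 0.00). In genes with 3 or more introns the medians were 6.4% for first, 6.38% for internal and 7.28% for last introns, with overlapping intervals. The lower bound of the first intron exceeded the upper bound of the last in 131 genes, and the reverse was found in 119.

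Introns of the same gene were nevertheless spliced to different extents. In 408 of the 1209 genes (33.7%) the intervals of at least 1 pair of introns did not overlap, and the median range within a gene was 8.69 percentage points. Both values are over all kept junctions, which include those without a match to an annotated intron, such as small RNA ends. The rank correlation between neighbouring introns was 0.18 over 2304 pairs, and 0.17 over the 637 pairs with more than 100 reads at both; these pairs share a transcript and a library. Reads also varied along a gene, by a median of 2.64-fold between the intron with most and that with fewest. Per gene, 538 (23.7%) had only well spliced kept introns, 564 (24.8%) had at least 1 poorly spliced intron, and 32 genes with several kept introns had no intron below 20%.

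The genes with most introns show this within single transcripts. The telomerase reverse transcriptase gene trt1 has 15 listed introns, 13 of them kept, with shares from 0 to 82.1% and a median of 11.1%. Introns III (10 split, 46 unsplit reads, 69.6 to 91.1%) and XIII (25 and 33, 56.9%, 43.2 to 69.8%) had higher shares than the other 11, although the interval of XIII overlaps that of XV (11.6 to 47.8%). Of the others, XII had 60 split and 2 unsplit reads (3.23%, 0.393 to 11.2%). The 5’SS of III and XIII lack the G at the fifth base that XII has, and both have the branch pentamer CTGAC where XII has CTAAC. Intron XII was chosen after its value was seen, the other trt1 sequences are not shown, and a role of these bases was not tested. Over the library the 236 introns with CTGAC had a median of 8.0%. Of them 72 (30.5%) were well spliced and 53 (22.5%) poorly spliced, against 38.3 and 14.6% of all. Coordinates are chrII:2065472-2065528 for III, chrII:2063270-2063312 for XII and chrII:2062981-2063025 for XIII, all on the minus strand.
trt1 III: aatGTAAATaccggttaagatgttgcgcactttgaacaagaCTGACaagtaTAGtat
trt1 XII: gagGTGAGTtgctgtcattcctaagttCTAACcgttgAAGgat
trt1 XIII: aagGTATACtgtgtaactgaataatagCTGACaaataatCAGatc
The remaining trt1 introns with more than 10 reads lay between 0% (intron I, 27 split reads) and 26.9% (intron XV, 7 unsplit and 19 split reads).

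The other genes with 12 or more introns had no intron over 50%. In clr6, the gene of a class I histone deacetylase, all 13 introns were kept, with a median of 3.03% and 8 well spliced. Introns V, VI and VIII were at 0.843, 0.604 and 0.781%, whereas XII (137 split, 26 unsplit reads, 10.7 to 22.5%) and XIII (22 and 6, 21.4%) were highest. In trk2, a potassium transporter gene, the 12 introns ranged from 1.00% (IV, 1 unsplit and 99 split reads) to 21.2% (III), and the last was at 17.6% (136 split, 29 unsplit reads, 12.1 to 24.3%). SPCC320.04c, the gene of the mitochondrial GTPase Gem1, had 12 kept introns with 15 to 50 reads, of which IV, VI, VIII and XI had no unsplit read and XII was highest at 26.1%. In rdh54, which encodes a DNA translocase of recombination, 10 of 14 introns were kept and none was well spliced, with shares from 6.67 to 35.3% and the highest at XII, XIII and XIV (35.3, 33.3 and 35%), although the intervals at 13 to 44 reads are wide.

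**Figure D3:**
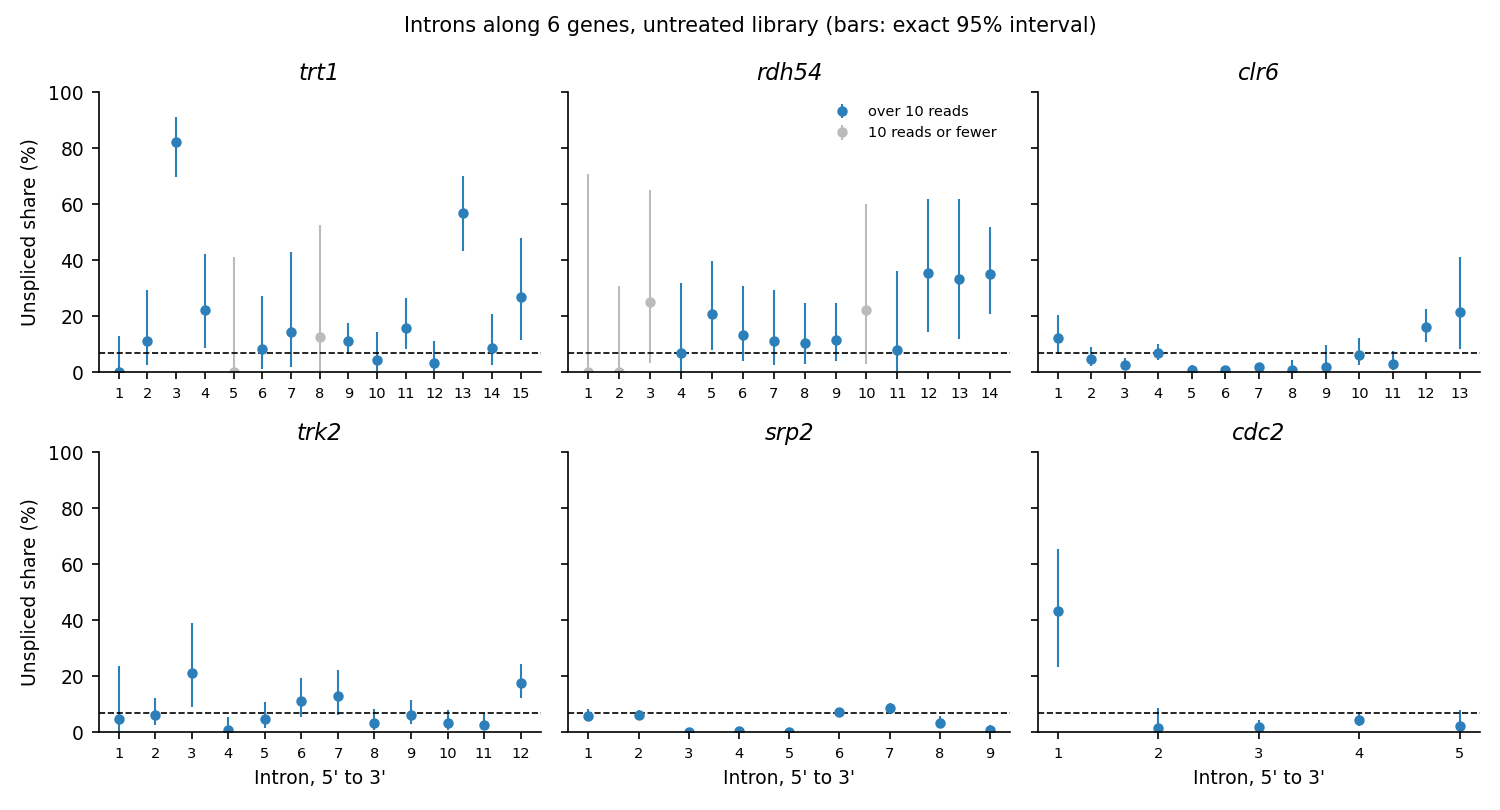
Unspliced share (%) of each intron from 5’ to 3’ in trt1, rdh54, clr6, trk2, srp2 and cdc2, with exact 95% intervals; grey points have 10 reads or fewer and the dashed line is the median of all introns, 6.88%. Introns III and XIII have the highest shares in trt1 and intron I has the highest in cdc2; the interval of XIII overlaps that of XV.

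Genes that code for proteins of the splicing reaction were themselves spliced at a wide range. The SR protein gene srp2, which has 9 introns, ranged from 0.0723% at III to 8.63% at VII (1144 split, 108 unsplit reads, 7.13 to 10.3%). Its introns III, IV and V, with 1 to 5 unsplit reads each, were far below I and II (5.87 and 6.22%), VI (7.11%) and VII, and their intervals do not overlap those of any of these. Introns VIII and IX were at 3.25 and 0.952%. In srp1, the other SR protein gene, intron I was at 1.40% (282 split, 4 unsplit reads) and intron II at 8.07% (433 and 38), without overlap. The kinase gene prp4 itself has 1 intron with 6 split reads and no unsplit read, too few to be kept.

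Genes known for cell cycle control and the other genes of the study’s reporter and RT-PCR work differed as well. In cdc2, the gene of the cyclin-dependent kinase, intron I lies in the 5’ UTR and had 13 split and 10 unsplit reads (43.5%, 23.2 to 65.5%), while the 4 coding introns were at 1.64, 1.97, 4.24 and 2.33%, each with an upper bound under 9%. The MBF transcription factor gene res1 had 160 split and 38 unsplit reads (19.2%, 14 to 25.4%), and its partner res2 had 3 of each, below the minimum. The ribosomal protein gene rpl29 was at 3.98% (2339 split, 97 unsplit reads). The res1 intron (chrII:1233558-1233690, plus strand) and the rpl29 intron (chrII:3172347-3172405, plus strand) both have the branch pentamer CTAAC. Over positions -3 to +6, exon bases included, both have 6 bases that can pair with U1. Within the 5’SS, res1 differs from GTAAGT at +3 and +4, and rpl29 at +3 only.
res1 I: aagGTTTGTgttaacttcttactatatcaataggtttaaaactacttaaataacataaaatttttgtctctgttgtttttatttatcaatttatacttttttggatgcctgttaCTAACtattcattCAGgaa
rpl29 I: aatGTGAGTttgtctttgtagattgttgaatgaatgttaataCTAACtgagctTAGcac
The 3 introns of tbp1, the TATA-binding protein gene, were at 10.4, 10 and 14.1%, with 2292, 160 and 398 reads and overlapping intervals. The kinase gene ppk8 was at 11.1% (48 split, 6 unsplit reads), mrp17 at 13.4 and 10.3%, rpb5 at 5.50 and 0.680%, and the adenine synthesis gene ade2 at 8.45 and 3.22%. The meiotic cyclin gene rem1 had a single read.

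Gene function lists were built from gene symbols and RefSeq product names, and their medians ranged from 3.18 to 10.4%. Within 1 library the level of expression goes with these lists, so each is given with its median reads and with the percentage of its introns that lay below the median of all introns of the same reads group. That percentage is 49.9% over all introns. Its exact interval lay apart from 49.9% for 3 of the 24 lists. It was higher for translation factors, with a lower bound of only 50.4%, and for the spliceosome, and lower for uncharacterized genes. No correction was made for looking at 24 lists, so some intervals can miss 49.9% by chance. The interval also treats introns as independent, although the 49 of translation factors come from 28 genes and the 150 of the spliceosome from 72. The 3 lists are therefore a description and not a test. A gene can be in several lists, and 2415 of the 4632 introns were in at least 1.

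Lists of protein synthesis lay on both sides of the overall median. Translation factor introns (49, median 343 reads) had a median of 3.18% (2.62 to 6.11%), with 31 well spliced (63.3%, against 38.3% of all) and 2 poorly spliced (4.08%, against 14.6%), and 65.3% (50.4 to 78.3%) lay below the median of their reads group. Besides tef5, the eIF1 gene sui1 had the lowest upper bound (1758 split, 9 unsplit reads, 0.509%), and SPCC18B5.06, of the eRF1 family, was highest among annotated introns (27.8% at intron II). The 91 introns of cytosolic ribosomal protein genes, with a median of 1263 reads, took 25.4% of all reads and had a median of 4.29% (3.73 to 4.87%), with 58 well (63.7%) and 7 poorly spliced (7.69%), the junctions cpc2 III and rpl701 II at snoRNA ends among the latter. Against introns of like depth, 44.0% (33.6 to 54.8%) lay below the median of their group, and with over 500 reads their median was 4.15% over 72 introns, against 3.54% over 236 others. Ribosome biogenesis introns (97, median 126 reads) had a median of 5.56%, with 56.7% (46.3 to 66.7%) below the median of their reads group, and with 0.138% at tif6 I (722 split reads, 1 unsplit read) and 0.217% at nop52 III, and with junctions II and III of SPAC823.04 at the upper end. The 45 introns of mitochondrial ribosomal protein genes (median 89 reads) were at 7.52% (4.76 to 11.1%), with 48.9% (33.7 to 64.2%) below the median of their group and mrpl39 I at 0.367%. The 24 of tRNA synthetase genes (median 65.5 reads) were at 7.47% (4.78 to 18.8%), with 41.7% (22.1 to 63.4%) below that median, vrs2 I at 37.1% and msw1 II at 31.6%.

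Among genes of RNA synthesis and processing, the spliceosome and snRNP list and the transcription list lay on different sides of the overall median. The 150 spliceosome introns (median 87 reads) had a median of 5.54% (3.85 to 6.49%), with 68 well spliced (45.3%, against 38.3% of all) and 16 poorly spliced (10.7%, against 14.6%), and 60.0% (51.7 to 67.9%) were below the median of their reads group. The 154 introns of RNA polymerases and general transcription factors were at 7.69% (5.88 to 9.39%), with a median of 76 reads. Their 52 well spliced (33.8%) and 20 poorly spliced introns (13%) were near the shares of all introns, and 46.8% (38.7 to 55%) were below the median of their reads group. In that list SPCC553.11c III, of a TFIIA subunit, had 84 split reads and no unsplit read, and rpb5 II was at 0.680%, while med11 was not spliced in any of 27 reads.

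Protein folding and turnover genes were close to one another. Proteasome introns (47, median 231 reads) had a median of 4.62% (3.91 to 7.69%), with 53.2% (38.1 to 67.9%) below the median of their reads group, and with 0.385% at rpn3 I and 0.560% at pre6 II, and were highest at 21.8% in mts4 and 21.9% in rpn9, both single introns of regulatory subunit genes. Chaperone introns (54, median 142 reads) were at 4.70% (3.03 to 6.85%), and 53.7% (39.6 to 67.4%) were below that of their group, and with no unsplit read among 424 at SPAC4H3.01 I, of a DnaJ domain protein gene, and 0.694% at cdc37 I, and with 75% at the prefoldin-like gene SPCC736.07c (9 unsplit, 3 split reads). The 210 introns of ubiquitin, SUMO and Nedd8 genes had a median of 68.5 reads and were at 6.67% (5.30 to 7.69%). Their 85 well spliced (40.5%) and 23 poorly spliced introns (11%) were near the shares of all introns, 38.3 and 14.6%, and 56.2% (49.2 to 63%) were below the median of their group. Here nse2 II, of a SUMO ligase gene, was at 0.763% and ubc4 II, of a ubiquitin-conjugating enzyme gene, at 1.80%, and sst2 II, of a ubiquitin protease gene, at 72.7% (16 unsplit, 6 split reads).

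Genes of energy metabolism and transport were likewise at or below the overall median. V-ATPase introns (45, median 296 reads) had a median of 3.77% (3.12 to 5.07%) and 29 were well spliced (64.4%, against 38.3% of all), with vma3 II at 0.491%. Of them 60.0% (44.3 to 74.3%) lay below the median of their reads group. The highest was vma9 III, an intron in the 3’ UTR with 127 split and 402 unsplit reads (76.0%, 72.1 to 79.6%), which holds 402 of the 1019 unsplit reads of the list. Introns of respiration and ATP synthase genes (74, median 213.5 reads) were at 5.24% (4.15 to 7.99%), with 44.6% (33 to 56.6%) below the median of their group, and with cox12 II at 0.333% and atp14 II at 0.948% and with cox20 I highest (34 unsplit, 38 split reads, 47.2%). Mitochondrial import introns (23, median 126 reads) were at 4.55% (2.94 to 7.61%), with 60.9% (38.5 to 80.3%) below that of their group. Within tim14, of the TIM23 motor, intron I had 1 unsplit and 125 split reads and intron II 15 and 4 (78.9%, 54.4 to 93.9%). Metabolic genes (59 introns, median 195 reads) were at 4.85% (3.49 to 7.44%), with 57.6% (44.1 to 70.4%) below that of their group, and with no unsplit read among 419 at gua2 II, 0.617% at the 5’ UTR intron of tal1, and 45.9% (38.4 to 53.4%) at met6. Membrane transporters (93, median 58 reads) were at 6.16%, with 60.2% (49.5 to 70.2%) below that of their group. Of their introns 37 (39.8%) were well spliced, 15 (16.1%) poorly spliced and 5 (5.38%) over 50%, against 38.3, 14.6 and 3.02% of all. The cadmium-phytochelatin transporter gene hmt1 was at 0.741%, whereas the calcium transporter gene SPBC354.08c had 12 unsplit reads and no split read.

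Cell structure and signalling genes had medians near that of all introns. The 146 cytoskeleton introns (median 74.5 reads) were at 5.66% (4.39 to 7.34%), with 57.5% (49.1 to 65.7%) below the median of their reads group, with SPAPJ696.02 II at 0.217% and the cofilin gene adf1 at 1.76% for intron II, and with alp41 VI, a 3’ UTR intron, at 78.6% (22 unsplit, 6 split reads). The 281 introns of small GTPase and vesicle traffic genes (median 78 reads) were at 5.88% (5.0 to 6.90%), with 53.7% (47.7 to 59.7%) below that of their group, and with ypt1 III at 0.774% and no unsplit read among 253 at sec61 IV. At the other end 29 (10.3%, against 14.6% of all) were poorly spliced and 4 (1.42%, against 3.02%) were over 50%. Protein kinase introns (147, median 52 reads) were at 7.14% (5.88 to 8.57%). Their 54 well spliced (36.7%) and 23 poorly spliced introns (15.6%) were near the shares of all introns, 38.3 and 14.6%, and 51% (42.7 to 59.3%) were below the median of their group. The replication checkpoint kinase gene cds1 was highest in that list, with 67 unsplit and 44 split reads at intron IV (60.4%, 50.6 to 69.5%) and 46 and 47 at VI (49.5%), although its 7 introns reached down to 3.03%.

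Lists of the chromosome cycle had medians above that of all introns, but the intervals for cell cycle regulators and chromatin include it. DNA replication and repair introns (199, median 37 reads) had a median of 9.17% (7.29 to 11.6%), and 55 of them (27.6%, against 14.6% of all) were poorly spliced. Against introns of like depth 45.2% (38.2 to 52.4%) lay below the median of their group. In that list pcn1, the gene of the sliding clamp PCNA, was at 0.725% and mus81, of a junction resolvase, at 68.0% (17 unsplit, 8 split reads). Cell cycle regulator introns (78, median 39 reads) were at 8.33% (5.56 to 11.1%), with 48.7% (37.2 to 60.3%) below that of their group, and with suc1 I at 2.28% and cdc31 at 2.45%. Chromatin introns (146, median 63.5 reads) were at 7.48% (6.0 to 9.38%), with 47.3% (38.9 to 55.7%) below that of their group, and with no unsplit read among 187 at chz1 I, and with chp2, of an HP1-like protein, at 52.4% and the argonaute gene ago1 at 85.7% (18 unsplit, 3 split reads). Introns of uncharacterized genes (153, median 62 reads) were at 8.62% (7.34 to 10.5%), and 40.5% (32.7 to 48.7%) lay below the median of their reads group. In this list 11 introns (7.19%, against 3.02% of all) were over 50% and 32 (20.9%, against 14.6%) poorly spliced.

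Meiosis, mating and sporulation genes had the highest median, 10.4% (7.69 to 13.3%), with 31 well spliced (30.1%, against 38.3% of all) and 26 poorly spliced introns (25.2%, against 14.6%) of 103. Only 103 of 277 listed introns were kept in these growing cells, with a median of 34 reads, and 41.7% (32.1 to 51.9%) were below the median of their reads group, so against introns of like depth the interval includes 49.9%. In RNA of a whole culture, few cells with much RNA of a gene and many cells with little cannot be told apart. The meiotic septin gene spn7 had 37 unsplit and 8 split reads at intron III (82.2%, 67.9 to 92.0%) and dni2 had 17 unsplit reads and no split read, while spn2 I had 64 split reads and no unsplit read. The wtf genes, selfish elements that act through spores, had 30 of 96 introns kept, with a median of 25 reads and a median share of 5.85% (0.00 to 9.43%). Taken as the median over their 16 genes it was 9.26% (3.41 to 16.2%), on the other side of the overall median. Below the median of their reads group lay 66.7% (47.2 to 82.7%), with wtf14 IV (361 split, 7 unsplit reads, 1.90%) best covered. Since only uniquely mapped reads were kept, sequence shared between the 23 listed wtf genes could lower their counts or shift their shares, which was not tested.

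**Figure D4:**
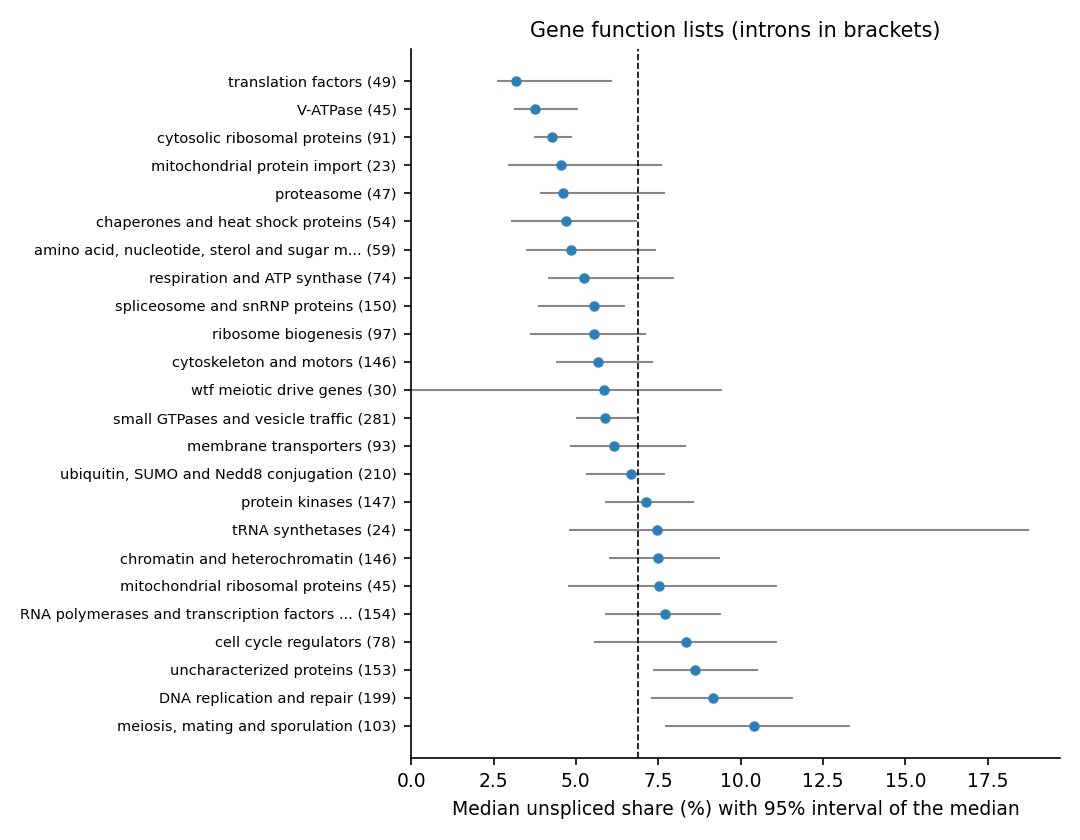
Median unspliced share (%) of each gene function list with the exact 95% interval of the median over its introns; numbers of introns stand in brackets and the dashed line is the median of all introns, 6.88%. Translation factors, V-ATPase, cytosolic ribosomal proteins, chaperones and spliceosome lie below the line with their whole interval, and uncharacterized genes, DNA replication and repair, and meiosis above it.

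Introns with fewer bases pairing with snRNA U1 were spliced less completely. Over positions -3 to +6 each base equal to that of the sequence that pairs fully with the U1 end (GTAAGT in the intron, CAG in the exon) was counted, giving 0 to 9. Wobble pairs and other pairs of the U1 pseudouridine were not counted. Introns with 5 or fewer pairs (1059) had a median of 8.77% (8.0 to 9.37%) and those with 7 or more (1652) one of 5.88% (5.56 to 6.34%), a gap of 2.89 percentage points. The gap was present in each of the 6 reads groups, for example 18.2 against 8.33% at 11 to 20 reads and 4.33 against 3.22% over 500. From 4 to 7 pairs the median fell from 13.5% to 8.33, 6.76 and 5.84%. It did not go on falling: introns with 8 pairs were at 6.16% (5.19 to 7.14%) and the 32 with all 9 pairs, which had a median of 40.5 reads, at 11.5% (7.50 to 18.2%), of which 31.2% (16.1 to 50%) were below the median of their reads group.

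Single bases at +3 to +6 of the 5’SS went with different medians. By the last exon base the medians differed little, with medians of 6.67% for G and 7.26% for T at -1. At +3, A gave 6.67%, G 8.55% (6.5 to 11.9%, 130 introns) and T 7.94% (6.82 to 9.56%, 170 introns). At +4, A and T both gave 6.67% and G 8.83% (7.14 to 10.8%, 144 introns). At +5, introns with G (4061) had a median of 6.52%, those with A 9.32% and those with T 9.23%, and the intervals for A (from 8.13%) and T (from 8.33%) lie above that median. At +6, T gave 6.45% and A 8.14%. Among frequent hexamers, GTAAGT (1271 introns) and GTATGT (948) both had 5.88%, GTAAGG 8.96% (112 introns) and GTAATA 17.3% (33 introns, 9.09% or more). The 6 introns that begin with GC had a median of 6.75% (2.63 to 26.7%).

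Branch pentamers differed little among the frequent forms and more among rare ones. Introns whose best pentamer was CTAAC (2059) had a median of 6.35%, TTAAC (725) 6.43%, CTAAT (1044) 6.82%, CTGAC (236) 8.0%, CTCAT (8) 13.5% (4.35 to 88.2%) and CTTAT (22) 16.9% (9.09% or more), and the 47 introns without any pentamer of that form in the last 40 nt were at 9.61% (5.56% or more). The 3’SS TAG, CAG and AAG had medians of 6.52, 7.14 and 7.99%. The distance from the branch A to the 3’SS and the length of the intron went with small differences: medians were 6.47% at 9 to 12 nt and 7.98% at 17 nt or more, and 7.14% (6.67 to 7.78%) for introns up to 45 nt against 5.94% (5.19 to 7.35%) for those over 200 nt.

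**Figure D5:**
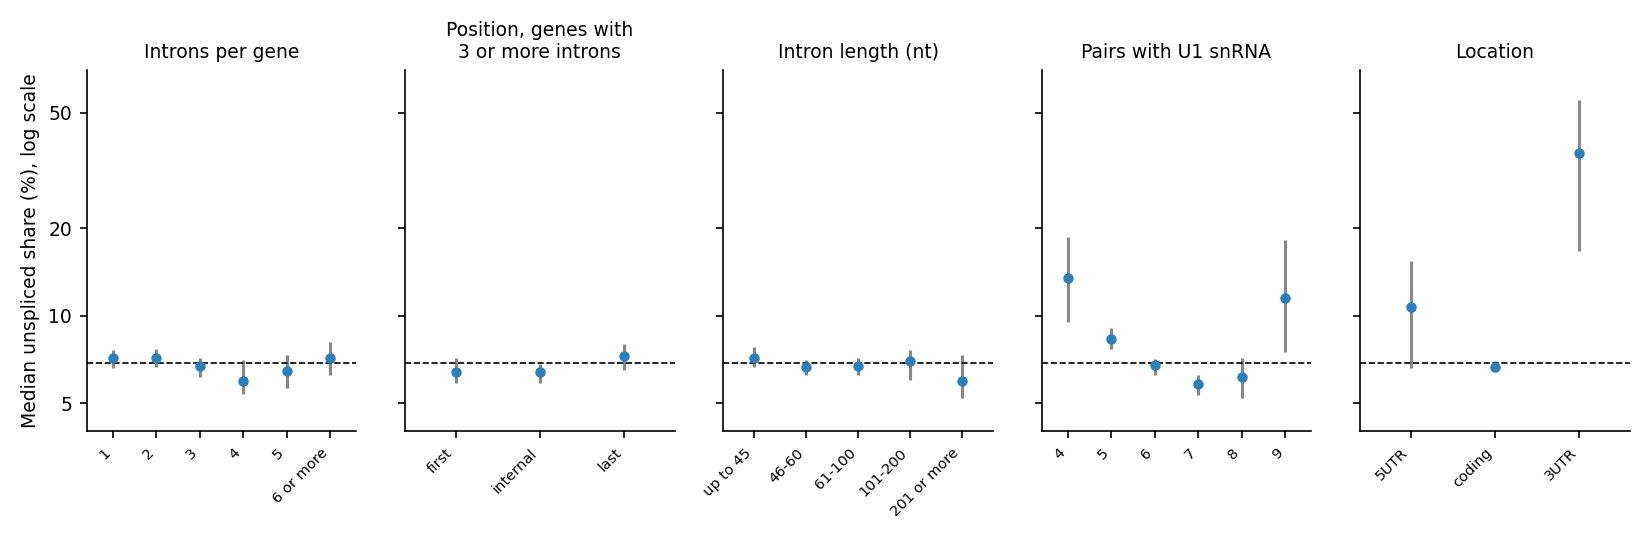
Median unspliced share (%, log axis) with the exact 95% interval of the median, by number of introns in the gene, position, intron length, pairs with U1 and location; the dashed line is the median of all introns, 6.88%. Medians by number, position and length stay near the line. Those for 4 U1 pairs (13.5%), 5 pairs (8.33%), all 9 pairs (11.5%) and the 3’ UTR (36.4%) lie above it with their whole interval.

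By location in the transcript, 3’ UTR introns were the least spliced. The 4464 introns within coding sequence had a median of 6.68% (6.47 to 6.96%), the 90 in 5’ UTRs 10.7% (6.59 to 15.4%) and the 21 in 3’ UTRs 36.4% (16.7 to 55.3%). None of the 21, with a median of 28 reads, was well spliced (38.3% of all introns were) and 15 were poorly spliced (14.6% of all), the lowest being at 5.56%. Below the median of their reads group lay 14.3% (3.05 to 36.3%) of them. Of the well spliced matched introns 0 of 1767 lay in a 3’ UTR, with an exact upper bound of 0.209%, against 21 of all 4577 (0.459%). For 5’ UTR introns the difference from coding introns was seen at low reads, with 21.7 against 8.57% at 21 to 50 reads, and not over 500 reads (2.07 against 3.85%, with 10 introns).

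Features of the matched introns over 50% can be set beside those of all matched introns. Of the 107, 49.5% (39.7 to 59.4%) had 5 or fewer U1 pairs, against 23.1% of all, and 68.2% (58.5 to 76.9%) had G at +5, against 88.7%. UTR introns made up 15.9% (9.54 to 24.2%), against 2.43%. CTAAC was found in 36.4% (27.4 to 46.3%), against 45%, and introns with 50 or fewer reads made up 72.9% (63.4 to 81.0%), against 37.6%. Nearly all unspliced coding introns would bring a stop codon into the reading frame or shift it: only 140 of 4464 would leave it open, and these had a median of 7.25% (6.39 to 8.33%), against 6.71% (6.47 to 6.98%) for the 3873 with an in-frame stop.

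The order of introns in untreated cells can be read against the inhibited libraries, which share the strain and the table. Of the 4301 introns with more than 10 reads in each library, those well spliced without inhibitor had medians of 2.56% at 0 min, 20.4% at 30 min and 12.2% at 60 min. Those at 20 to 50% before had medians of 26.7, 77.8 and 70.1%. The groups were formed on the 0 min values, so these figures are a description of the 3 libraries.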

How the data were processed

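RNA was selected with oligo-dT and sequenced as directional libraries. The authors removed adapters with TagDust, aligned reads with TopHat and the Ensembl annotation ASM294 v1.15, kept uniquely mapped reads, and counted split and unsplit reads in a window of 3 bases at every 5’ exon junction; these counts are deposited without normalization, and SAMtools is also named in the processing notes. The deposited log2 values, the splicing index RSEI, equal the log2 of the ratio of split to unsplit reads, 1 added to both, in all 5374 lines and were otherwise not used, as were the indices of the inhibited cells. The 6 lines that repeat a junction were dropped. The 6 mitochondrial junctions had too few reads.

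Shares, intervals and medians were computed from the untreated counts with Python 3.11.15, numpy 2.4.6, pandas 2.3.3 and scipy 1.17.1. The 95% interval of a median is the exact order-statistic interval over introns, and for a difference of 2 medians the outer bounds were joined. Introns, sequences and locations came from RefSeq ASM294v3, a later release than the authors’ annotation, by the position of the 5’SS, leaving out introns under 20 nt, and positions count from 1. The calculation of intervals was checked on simulated binomial counts at the depths of the 4632 introns, where 97.5% of intervals held the true share. Exact intervals hold at least 95% for such counts by construction. The check therefore covers the calculation only, and not reads that are not independent.

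Introns named are the 10 with most reads, the 12 lowest upper and 20 highest lower bounds, the 2 lowest upper and 2 highest lower bounds of each list, the introns of the 5 genes with most introns and of the 8 with the widest gap, and those of 14 genes; of the list extremes, some are not printed. The introns that hold small RNAs, the sequences printed, and the single bases, hexamers and pentamers were chosen after their values were seen. The members and lists were chosen with earlier results of these data known. prp1, one of the 14 genes, was not found in the table by that symbol and is not analysed here. Alternatives changed the read minimum, the pseudocount, the matching to the reference, the summary per gene and the grouping.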

Additional observations from a re-analysis of the deposited data

How the results depend on the processing

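All results are from 1 library, so no replicate could be left out and no test was made. No paired analysis was possible because each condition has 1 library. Of the 13 alternative values of differences, which alone could change direction, none did. Of all 106 alternative values, 89 stayed within the 95% interval of the value reported and 17 did not. With more than 20 and more than 50 reads, the median unspliced share was 6.52 and 5.81%, well spliced introns made up 40.4 and 42.9%, poorly spliced ones 12.1 and 7.92%, and those over 50% 2.36 and 1.39%. With 1 added to both counts the median was 8.25%, with 28.4% well and 16.6% poorly spliced. The median over genes of the pooled share was 7.309%. With matched introns alone, 2.34% were over 50%. With more than 50 reads the DNA replication and repair list had a median of 6.75%, and over genes the small GTPase and vesicle traffic list one of 6.91% and the wtf list one of 9.26%, within its interval but above the overall median. The gap between the lowest and highest reads groups was 4.66 percentage points by the reads of the other introns of the gene, which leaves out single-intron genes. That between the shortest and longest introns was 2.76 in single-intron genes. Matched introns alone as an alternative for the lists, for single-intron genes and for first against last introns was chosen after seeing the data, and left each within its interval.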
